A study of Mus musculus with 48 samples.

Results

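The 10 genes described here encode the 2 cytoplasmic actins and proteins that bind, sever or branch actin filaments: Actb, Actg1, Cfl1, Pfn1, Pfn2, Tmsb4x, Tmsb10, Arpc2, Arpc3 and Gsn. They were chosen by function, matched by symbol to the Ensembl identifiers of the count tables, and are 10 of the 47643 genes listed. All 10 were found, and all 10 were among the 14618 genes that passed the filter on low counts.

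The counts came from translating ribosome affinity purification (TRAP), in which a tagged ribosome is pulled down with the RNA bound to it. Both groups came from the same mice, for which the labels give no treatment, of the line Tg(Aldh1l1-eGFP/Rpl10a) JD130Htz (Aldh1l1:L10a-eGFP), in which the astrocyte promoter of Aldh1l1 drives the ribosomal protein L10a fused to enhanced green fluorescent protein. The pulldown used an antibody to GFP on dorsal hippocampus, from whole astrocytes (Astro) or from perisynaptic astrocytic processes (PAP), the fine branches that contact synapses. Each of 3 animals gave both compartments, each deposited as 8 technical replicates, 48 samples in all. The labels give no age, and how the processes were separated is not given in the sources used here. The 8 technical replicates were summed, which gave 6 libraries and n = 3 animals per group. Animals 1 to 3 are C1 to C3 of the labels.

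Actin cycles between single molecules (G-actin) and filaments (F-actin). Thymosin beta 4 and thymosin beta 10 hold monomers in reserve, profilins feed them to growing filament ends, the Arp2/3 complex starts branches, cofilin severs old filaments and gelsolin severs and caps them in response to calcium. In astrocytes this turnover shapes the fine processes that reach and leave synapses, and beta-actin mRNA is a textbook case of an mRNA carried to the cell periphery and translated there.

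The 10 genes hold 3 pairs of close relatives, and a read can be told apart within a pair only by the bases that differ. The first 60 coding bases of each are shown, 5′ to 3′ on the coding strand, from GENCODE M21 transcripts on GRCm38, and capitals mark the bases that differ between the pair.
Actb (chr5:142905627-142905686, minus strand): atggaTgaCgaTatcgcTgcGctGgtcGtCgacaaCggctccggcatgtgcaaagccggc
Actg1 (chr11:120348032-120348091, minus strand): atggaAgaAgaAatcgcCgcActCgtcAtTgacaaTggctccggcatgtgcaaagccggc
Pfn1 (chr11:70654421-70654480, minus strand): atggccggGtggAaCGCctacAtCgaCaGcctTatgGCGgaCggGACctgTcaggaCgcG
Pfn2 (chr3:57847423-57847482, minus strand): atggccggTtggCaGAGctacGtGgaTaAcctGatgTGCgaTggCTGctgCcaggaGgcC
Tmsb4x (chrX:167207977-167208036, minus strand): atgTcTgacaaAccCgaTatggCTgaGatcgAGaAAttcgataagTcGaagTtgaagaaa
Tmsb10 (chr6:72957953-72958012, minus strand): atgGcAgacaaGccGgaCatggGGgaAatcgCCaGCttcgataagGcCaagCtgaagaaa
The 2 actins differed at 128 of 1128 coding bases (88.7% identical), the 2 thymosins at 40 of 135 (70.4%) and the 2 profilins at 163 of 423 (61.5%), so the actins were the most alike of the 3 pairs.

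A localisation element of Actb is printed because this mRNA is known to be carried by it. The zipcode, which the RNA-binding protein Igf2bp1 binds and whose conserved letters include GGACT and ACACCC, was searched on the sense strand as GGACT followed by ACACCC with at most 25 bases between. Actb-201 held it 3 bases past the stop codon, at chr5:142903767-142903795 of GRCm38, minus strand, with both letter groups in capitals.
Actb zipcode match: GGACTgttactgagctgcgttttACACCC
Of the 10 genes 1 held the element in its 3′ untranslated region, as did 165 of the 19964 genes searched (0.826%). The match describes letters only, since binding was not measured.

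The Astro libraries held 18707844 to 20293538 counts and the PAP libraries 1829962 to 2980984, a ratio of medians of 10.6. A floor of 3 counts was 0.148 to 0.160 CPM (counts over the library total, on the usual per-library scale) in Astro and 1.01 to 1.64 in PAP. Levels below are CPM scaled by TMM factors, and fold changes are PAP minus Astro on the log2 scale. The summed level of 12 astrocyte markers was 28350 to 41161 CPM in Astro and 4748 to 18786 in PAP, and Aldh1l1 itself differed by -1.53 (adjusted p = 0.0377 by edgeR's quasi-likelihood test over all genes, and 0.206 when the animal was a block). The median log2 fold change of all genes tested was -0.53, and it moved to -0.37 when libraries were scaled by their totals alone. These are levels in ribosome pulldowns, and the cause of the lower marker levels in PAP was not tested.

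Transcripts of the actin-turnover genes were present in both compartments, and 9 of the 10 were counted in every library. Together they took 0.411%, 0.361% and 0.435% of all counts in Astro and 0.184%, 0.260% and 0.298% in PAP, so the PAP share was lower in each of the 3 animals. By edgeR's quasi-likelihood test without an animal term, 1 of the 10 was lower in PAP at an adjusted p under 0.05 (Cfl1) and 0 were higher, where 15.4% of all genes tested were lower and 5.92% higher. With the animal as a block 0 of the 10 passed, where 0.0342% of all genes were lower and 0.876% higher. At an unadjusted p under 0.05, 3 of the 10 passed without the block, as did 30.9% of all genes. DESeq2's Wald test called 4 of the 10 and 35.2% of all genes, and limma voom 2 of the 10 and 24.1% of all genes.

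Levels did not overlap between the groups for 5 of the 10 genes, all lower in PAP (Actb, Actg1, Cfl1, Pfn2 and Gsn), where 35.1% of all genes tested were lower in PAP without overlap. The fitted log2 fold change was negative for 7 genes and positive for 3, with a median of -0.75 beside -0.53 for all genes tested. With the block the medians were -0.81 and -1.63, so the order of members and all genes turned with the model. The 12 astrocyte markers had a median of -1.58 (range -2.36 to -0.80). Above that median lay 8 of the 10 actin-turnover genes, as did most genes tested, whose own median was -0.53.

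**Figure D1:**
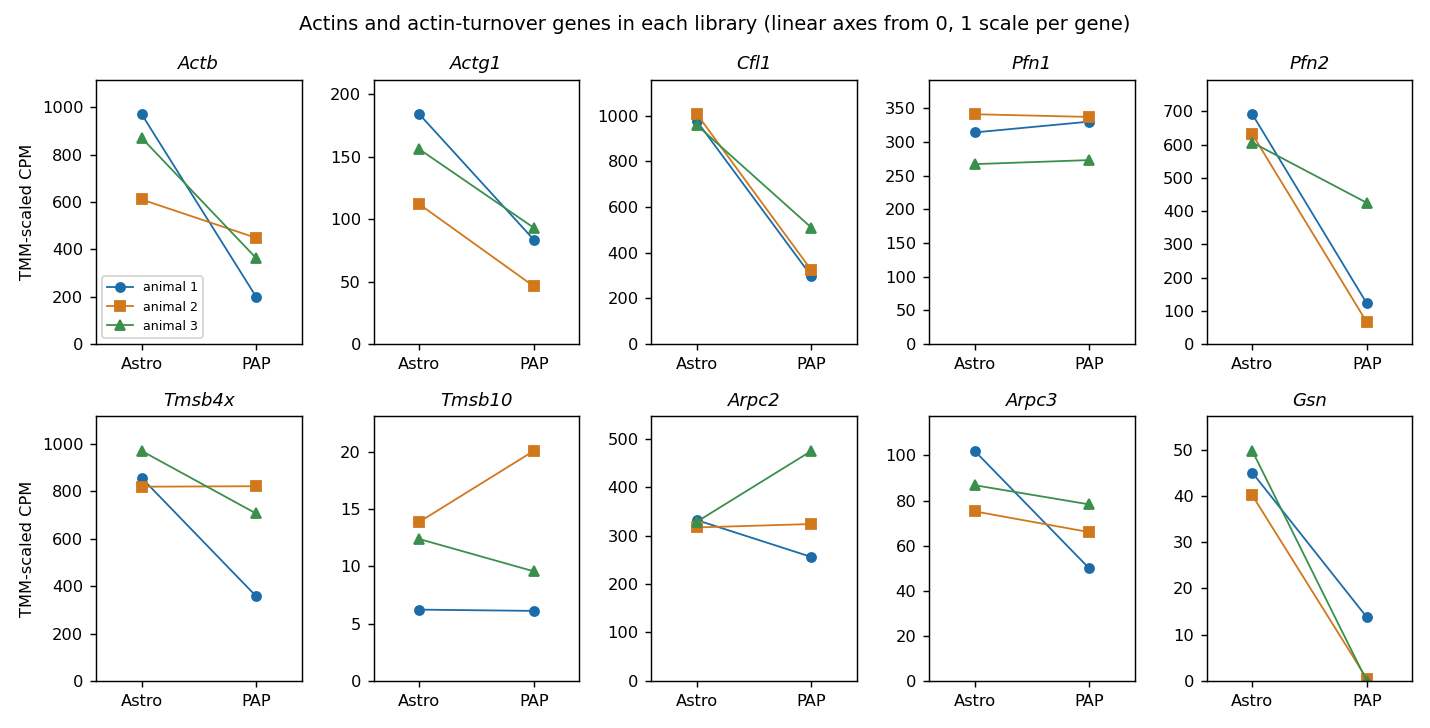
TMM-scaled CPM (vertical, linear from 0, with a scale of its own for each gene) of the 10 genes in Astro and PAP, with 1 line per animal. Cfl1 fell in every animal to between 298 and 510 CPM, Pfn1 stayed between 267 and 341 CPM in all 6 libraries, and Gsn reached 0 in PAP of animal 3.

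Of the actins, beta-actin (Actb, ENSMUSG00000029580, chr5:142903115-142906754) stood at 971, 611 and 871 CPM in Astro of animals 1 to 3 and at 201, 449 and 364 in PAP. Every PAP library lay under every Astro library, and animal 2, lowest in Astro, was highest in PAP. The within-animal differences were -2.27, -0.44 and -1.26 on the log2 scale. The fitted log2 fold change was -1.27 ± 0.37 (SE, n = 3 animals), with an adjusted p of 0.0569 by edgeR, which misses the threshold. With the block the adjusted p was 0.206 and with voom 0.424. It passed in 3 of 20 alternatives, among them the fit without PAP replicate 2 (0.0458) and DESeq2's Wald test (0.00537).

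Gamma-actin (Actg1, ENSMUSG00000062825, chr11:120345690-120348542), the second cytoplasmic actin, was counted at lower levels throughout. Its levels were 184, 112 and 156 CPM in Astro and 83.7, 46.4 and 93.2 in PAP. The groups did not overlap, and in both compartments animal 2 was lowest. At -1.02 ± 0.45 (SE, n = 3) the fitted log2 fold change did not pass by edgeR (adjusted p = 0.187), though DESeq2 gave 0.0410.

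Of the 50-base words in Actg1 exons 37.4% also occur in other genes, chiefly the processed pseudogenes Gm12715, Gm8399 and Actg-ps1, against 9.12% for Actb. Pseudogenes that share words with Actg1 held 1849, 1282 and 3203 counts in Astro, beside 3424, 1913 and 3077 for Actg1 itself. In PAP they held 43, 18 and 408 counts beside 164, 90 and 282. The small gene Gm23419, whose span shares 84 bases with Actg1, was listed at 1346, 790 and 1265 counts in Astro and 59, 38 and 149 in PAP. The counting could split reads among these genes, so the level of Actg1 is uncertain.

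Actb made up 84.0%, 84.4% and 84.7% of the actin pair in Astro, after division by exonic length. In PAP the share was 70.4%, 90.6% and 79.5%, that is 80.2% ± 10.1 (SD, n = 3) against 84.3% ± 0.363. The animals moved in different directions, by -13.5, 6.21 and -5.21 percentage points. An exact two-sided permutation test over all 20 relabellings gave p = 0.7 (0.7 after adjustment over 3 pairs). Without PAP replicate 1 the difference turned from -4.18 to 0.685 percentage points.

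Of the monomer reserve, thymosin beta 4 (Tmsb4x, ENSMUSG00000049775, chrX:167207093-167209315) was the most abundant of the 10 genes per kilobase of exon in both compartments. It exceeded 99.7% of the genes tested in Astro and 99.2% in PAP. Its levels were 857, 820 and 971 CPM in Astro and 358, 822 and 707 in PAP. PAP of animal 1 lay under all the other libraries, with a difference of -1.26, beside 0.00 in animal 2 and -0.46 in animal 3. The fit gave a log2 fold change of -0.49 ± 0.34 (SE, n = 3), with a 95% interval of -1.31 to 0.33 and an edgeR adjusted p of 0.422. Microglia also express this gene. The summed level of 12 microglial markers was 50.3 to 107 CPM in Astro and 99.8 to 220 in PAP, where 4 of them, Cx3cr1, P2ry12, Tmem119 and Aif1, were at 0 in all 3 libraries. The higher PAP sums came from other genes of that list, chiefly Ctss (9.67, 11.3 and 3.76 CPM in Astro and 121, 188 and 2.64 in PAP) and, in PAP of animal 3, Trem2 at 37.3 CPM, C1qc at 19.8, Tyrobp at 18.5 and C1qa at 16.5. The part of other cells in the Tmsb4x level was not tested.

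Thymosin beta 10 (Tmsb10, ENSMUSG00000079523, chr6:72957347-72958748), the relative with the same monomer-holding role, was far lower, though still above 61.8% of the genes tested in Astro and 65.2% in PAP per kilobase of exon. Its levels were 6.23, 13.9 and 12.4 CPM in Astro and 6.12, 20.1 and 9.58 in PAP. The PAP values rested on 12, 39 and 29 counts, and the groups overlapped. The fitted difference was 0.14 ± 0.89 (SE, n = 3) with a 95% interval of -2.0 to 2.27, so the fit set no closer limit in either direction. Of its 50-base words 27.0% occur in other genes, mostly Gm9844. Tmsb4x made up 99.2%, 98.2% and 98.6% of the thymosin pair in Astro and 98.2%, 97.4% and 98.6% in PAP. That difference of -0.626 percentage points gave p = 0.2 in the exact two-sided permutation test (0.3 after adjustment).

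Profilin 1 (Pfn1, ENSMUSG00000018293, chr11:70651850-70654644), which loads actin monomers with ATP and delivers them to filament ends, differed least of the 10. Astro libraries held 314, 341 and 267 CPM and PAP libraries 330, 337 and 273. Each animal's PAP value lay close to its own Astro value, with differences of 0.07, -0.02 and 0.03. The fitted log2 fold change was 0.03 ± 0.26 (SE, n = 3; edgeR adjusted p = 0.963), with a 95% interval of -0.59 to 0.65. It lay above the median of all genes tested by 0.55 without the block, by 1.66 with it and by 1.63 with voom. The sign of so small a value turned in 6 of 20 alternatives.

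Profilin 2 (Pfn2, ENSMUSG00000027805, chr3:57841895-57848079), the form enriched in the nervous system, had PAP levels under all its Astro levels. These were 691, 631 and 606 CPM in Astro and 123, 66.5 and 425 in PAP. PAP of animals 1 and 2 was far below Astro (-2.48 and -3.25), whereas animal 3 differed by -0.51. Fitted over all 3 animals, the log2 fold change of -1.65 ± 0.68 (SE, n = 3) did not pass by edgeR (adjusted p = 0.157, and 0.206 with the block at -2.11). Without PAP replicate 3 the log2 fold change was -2.82 and the edgeR adjusted p 0.0162, and DESeq2's Wald test on all 6 libraries gave an adjusted p of 0.0322.

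Within the profilin pair the share of Pfn1 was higher in PAP in every animal, although the test of this did not pass. After division by exonic length Pfn1 made up 40.1%, 44.3% and 39.3% of the pair in Astro and 79.7%, 88.2% and 48.6% in PAP. The means were 41.2% ± 2.7 and 72.2% ± 20.9 (SD, n = 3), and the groups did not overlap. Within animals the share was higher in PAP by 39.7, 43.9 and 9.28 percentage points. The exact two-sided permutation test gave p = 0.1, the smallest that 20 relabellings allow, and 0.3 after adjustment over the 3 pairs. Such a share needs no scaling between libraries. The difference of 30.9 percentage points ranged from 22.9 to 42.7 when 1 library at a time was left out. Neither profilin shares 50-base words with another gene. In the same libraries the summed level of 8 B-lineage markers was 21.4 to 45.5 CPM in Astro and 1892 to 4275 in PAP, and that of 12 neuronal markers 1065 to 1743 in Astro and 531 to 1359 in PAP, where Syt1 was called higher and Snap25 lower by edgeR. With the block neither passed (adjusted p = 0.206 and 0.127). The part of other cells in the profilin levels was not tested.

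**Figure D2:**
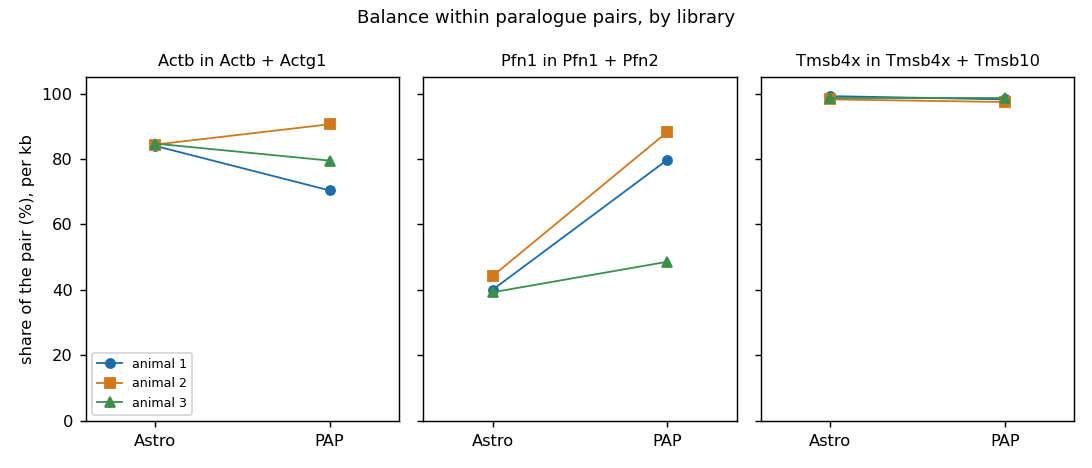
Share of the first gene in each pair (vertical, percent, from counts per kilobase of exon) in Astro and PAP, with 1 line per animal. The Pfn1 share is higher in PAP along all 3 lines, at 39.3% to 44.3% in Astro and 48.6% to 88.2% in PAP, while the actin lines go in different directions and Tmsb4x stays above 97.4%.

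Cofilin 1 (Cfl1, ENSMUSG00000056201, chr19:5490455-5495201), the main severing protein of non-muscle cells, was the gene that passed the test. Its Astro levels were 975, 1006 and 958 CPM and its PAP levels 298, 324 and 510. The Astro libraries lay within 1.05-fold of each other and every PAP library was under all of them, lower by 1.71, 1.64 and 0.91 on the log2 scale within animals 1, 2 and 3. Cfl1 was lower in PAP with a log2 fold change of -1.38 ± 0.28 (SE, n = 3), a 2.60-fold lower level (edgeR adjusted p = 0.0208). The size was nearly the same with the animal as a block, -1.42 ± 0.36, but the call was lost (adjusted p = 0.206). Leaving out Astro replicate 1, 2 or 3 gave -1.39, -1.33 and -1.37 with adjusted p-values of 0.0968, 0.0989 and 0.0895, in fits that called 115 to 140 genes in all, against 3115 with all 6 libraries. Beside the median of all genes tested, Cfl1 lay 0.85 lower without the block but 0.21 higher with it and 0.25 higher with voom, so its place among all genes turned with the model. Its -1.38 lay above the astrocyte markers' median of -1.58.

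The span of Cfl1 shares 2967 bases with Snx32 on the opposite strand, and reads of the 2 genes cannot be told apart there without strand. Snx32 was listed at 948, 877 and 1039 counts in Astro and 76, 121 and 85 in PAP, beside 18148, 17140 and 18871 and then 584, 628 and 1543 for Cfl1.

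Gelsolin (Gsn, ENSMUSG00000026879, chr2:35256380-35307892), which severs and caps filaments when calcium rises, was at 45.0, 40.1 and 49.7 CPM in Astro and 13.8, 0.515 and 0 in PAP. The PAP values rested on 27, 1 and 0 counts, and the groups did not overlap. A count of 0 in PAP of animal 3 allows up to 3 counts, or 1.01 CPM of its library total, which is far under the Astro levels. The fitted log2 fold change of -3.25 ± 1.78 (SE, n = 3) had a 95% interval of -7.52 to 1.03 and did not pass by edgeR (adjusted p = 0.292, and 0.256 with the block at -5.66). PAP replicate 1 held nearly all the PAP counts, and without it the value was -7.64 (adjusted p = 0.0221). Voom gave -5.03 (adjusted p = 0.0215). Oligodendrocytes express gelsolin strongly. The summed level of 10 oligodendrocyte markers was 811 to 885 CPM in Astro and 575 to 1015 in PAP, and their part in the Gsn level was not tested.

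Arpc2 and Arpc3 are subunits of the Arp2/3 complex, which holds 2 actin-related proteins and 5 smaller subunits and starts a new filament as a branch on an old one. Arpc2 (ENSMUSG00000006304, chr1:74236084-74268209), which with Arpc4 forms the core that binds the mother filament, was at 332, 317 and 329 CPM in Astro and 256, 324 and 475 in PAP. The PAP values spread around the narrow Astro range, below it in animal 1, within it in animal 2 and above it in animal 3, with within-animal differences of -0.38, 0.03 and 0.53. Over the 3 animals the log2 fold change was 0.11 ± 0.31 (SE, n = 3; edgeR adjusted p = 0.871), with a 95% interval of -0.63 to 0.85, and it turned to -0.24 without PAP replicate 3.

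Arpc3 (ENSMUSG00000029465, chr5:122391878-122414184), a small subunit at the edge of the complex, was at 102, 75.2 and 86.8 CPM in Astro and 50, 66.0 and 78.3 in PAP. It was lower in PAP within each animal, by 1.03, 0.19 and 0.15 on the log2 scale, but the groups overlapped. Its log2 fold change was -0.44 ± 0.45 (SE, n = 3; edgeR adjusted p = 0.600), with a 95% interval of -1.52 to 0.63.

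**Figure D3:**
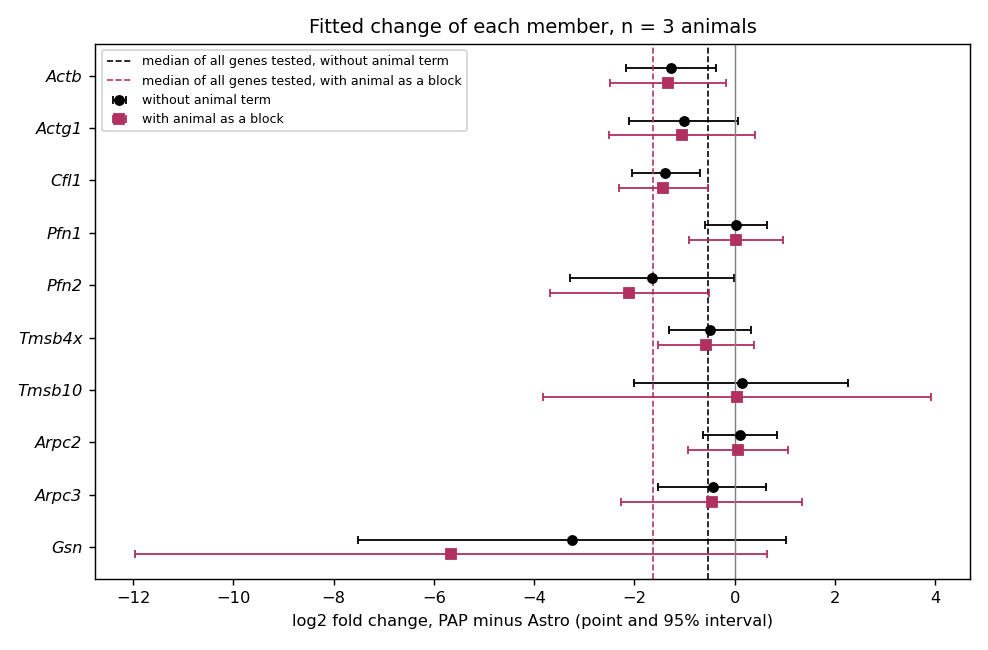
Fitted log2 fold change (horizontal, PAP minus Astro, points) with 95% intervals (bars) for each of the 10 genes, without an animal term (black circles) and with the animal as a block (red squares). Dashed lines mark the medians of all genes tested, -0.53 and -1.63, and the intervals are widest for Gsn and Tmsb10, the genes with the fewest PAP counts.

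Ordered by level per kilobase of exon, Astro ran Tmsb4x (644 CPM per kilobase), Cfl1 (344), Actb (305), Pfn2 (181), Arpc2 (160), Pfn1 (128), Actg1 (56.7), Arpc3 (31.9), Gsn (14.2) and Tmsb10 (8.51). In Astro the ranges of neighbours overlapped for Cfl1 and Actb alone. The order in PAP was Tmsb4x (459), Arpc2 (173), Cfl1 (133), Pfn1 (130), Actb (126), Pfn2 (57.9), Actg1 (28.0), Arpc3 (23.4), Tmsb10 (9.35) and Gsn (1.51). Here every neighbour from Arpc2 to Arpc3 overlapped the next, so only Tmsb4x at the top and Tmsb10 and Gsn at the bottom stood apart from their neighbours. The ranges of Actg1 (17.5 to 35.1) and Arpc3 (18.1 to 28.4) still lay under those of Arpc2, Cfl1, Pfn1 and Actb, of which Actb reached lowest (75). Over 54 gene-by-library sets of technical replicates with at least 80 counts, the dispersion index, which counting noise alone puts at 1, had a median of 1.29 (range 0.249 to 7.95).

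All other subunits of the Arp2/3 complex are given, whichever way they moved, but they were added after values were seen. Of these 8 genes 2 were higher in PAP by edgeR (25%, against 5.92% of all genes) and 0 lower (against 15.4%). Arpc1b, 1 of 2 alternative forms of the subunit that binds nucleation promoters, was at 36.2, 30.3 and 34.0 CPM in Astro and 519, 420 and 472 in PAP. It rose by 3.84, 3.79 and 3.80 on the log2 scale in the 3 animals, the same size in each. Its fitted log2 fold change was 3.81 ± 0.29 (SE, n = 3), 14-fold (edgeR adjusted p = 0.00227), and it held with the block (adjusted p = 0.0259) and in all 20 alternatives. The other form, Arpc1a, was at 101, 90.5 and 90.3 CPM in Astro and 633, 794 and 206 in PAP, higher by 2.53 ± 0.52 (edgeR adjusted p = 0.0208, but 0.199 with the block).

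The remaining subunits did not pass. Arpc5l, a form of the subunit Arpc5, was at 180, 201 and 196 CPM in Astro and 355, 345 and 345 in PAP, with an edgeR adjusted p of 0.0520. Arpc4, the partner of Arpc2, was at 288, 244 and 241 CPM in Astro and 143, 144 and 138 in PAP (adjusted p = 0.0768). Neither pair of groups overlapped. Actr2, Actr3 and Arpc5 had log2 fold changes of 0.75, 0.31 and 0.33 with overlapping groups. Actr3b, a second form of Actr3, was at 66.8, 75.6 and 78.0 CPM in Astro and 0.510, 2.58 and 47.3 in PAP (adjusted p = 0.417). Subunits of 1 complex ran from 4.35-fold lower to 14-fold higher in fitted value, and those with a single form in these lists, Actr2, Arpc2, Arpc3 and Arpc4, lay between -0.86 and 0.75 on the log2 scale.

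**Figure D4:**
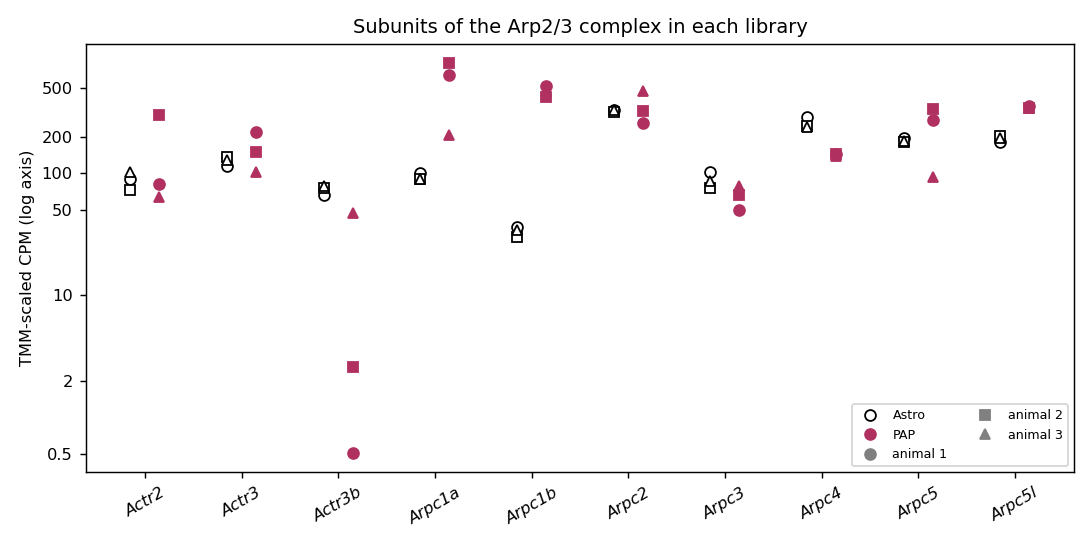
TMM-scaled CPM (vertical, log axis) of 10 Arp2/3 genes in each library, with open symbols for Astro, filled symbols for PAP and 1 symbol shape per animal. Arpc1b and Arpc1a lie higher in PAP in every animal, Arpc4 lower and Arpc5l higher without overlap, and Arpc2 and Arpc3 overlap.

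The wider actin pathway was described with a list of 124 other genes, of which 123 were found and 113 tested. By edgeR without the block 5 were higher in PAP (4.42%, against 5.92% of all genes) and 13 lower (11.5%, against 15.4%), with a median log2 fold change of -0.39 beside -0.53 for all genes. Both shares were below those of all genes tested. With the block 1 was higher (Arpc1b) and 0 lower, where 0.876% and 0.0342% of all genes were. Leaving out Astro replicate 1, 2 or 3 also gave 1 and 0, in fits where 0.881%, 0.954% and 1.05% of all genes were higher and 0.00773%, 0.0388% and 0.0389% lower. Without PAP replicate 3 the counts were 9 and 22, where 7.57% of all genes were higher and 20.2% lower.

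The 5 that rose were Arpc1b, Arpc1a, Diaph1, Ssh2 and Coro1a. Diaph1, a formin that elongates unbranched filaments downstream of RhoA, was at 5.26, 5.75 and 8.93 CPM in Astro and 453, 451 and 114 in PAP, a log2 fold change of 5.67 ± 0.71 (adjusted p = 0.0118 by edgeR, or 0.0674 under the block). Ssh2, a phosphatase that activates cofilin, was at 7.41, 6.34 and 8.17 CPM in Astro and 136, 141 and 24.5 in PAP (3.78 ± 0.85, edgeR adjusted p = 0.0243, blocked adjusted p = 0.206). In both genes animal 3 had the lowest PAP level. Coro1a, a coronin known mainly from blood cells, was at 9.51, 11.4 and 12.8 CPM in Astro and 54.6, 76.8 and 47.9 in PAP (2.41 ± 0.65, edgeR adjusted p = 0.0430, blocked adjusted p = 0.277), and it passed in 9 of 20 alternatives.

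Markers of another lineage moved with these genes. Of the B-lineage markers, whose sums are given above, 4 of the 5 tested were higher, namely Ms4a1, Jchain, Mzb1 and Pou2af1, the last 3 of them also with the block. The B-cell gene Cd79b did not pass but was at 0.645, 0.293 and 0 CPM in Astro and 41.3, 13.9 and 1.98 in PAP. Cd79a and Cd22 were at 0 in all 3 PAP libraries and at no more than 0.430 CPM in Astro, under the PAP floor, so no difference in them was detectable. The part of such RNA in the levels of Arpc1b, Arpc1a, Coro1a, Ssh2 and Diaph1, or of any of the 10 genes, was not tested.

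The 13 that fell were Dstn, Ssh1, Mtss1, Abi2, Daam2, Inf2, Capza2, Capzb, Add1, Cnn3, Rhoa, Rac1 and Cdc42. With the block the 13 had adjusted p-values of 0.0807 to 0.251, so 0 of these calls held. Dstn (destrin), a close relative of Cfl1 with the same severing role, was at 356, 449 and 419 CPM in Astro and 115, 135 and 160 in PAP, a log2 fold change of -1.58 ± 0.28 (edgeR adjusted p = 0.0208, blocked adjusted p = 0.206). The value for Cfl1 was -1.38. Among 15 tested genes of filament disassembly 2 rose and 2 fell (13.3% each, against 5.92% and 15.4% of all genes). Gmfb, the one with the highest mean CPM over the 6 libraries, which undoes Arp2/3 branches, was at 648, 669 and 648 CPM in Astro and 465, 255 and 831 in PAP (-0.34, adjusted p = 0.685).

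Of 14 tested capping and gelsolin-family genes 0 rose and 3 fell (21.4%, against 15.4% of all genes). Capza2, a subunit of the capping protein that stops growth at filament ends, was at 1103, 1016 and 1012 CPM in Astro and 319, 262 and 281 in PAP, a log2 fold change of -1.86 ± 0.21 (edgeR adjusted p = 0.00857, blocked adjusted p = 0.101). Rac1 (-1.53, edgeR adjusted p = 0.0208) and Rhoa (-1.56, 0.0239), GTPases that regulate actin assembly, also fell. Capza2, Rac1 and Rhoa were each lower in all 3 animals, and with the block 0 of them passed.

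Among 30 nucleation promoters and formins Diaph1 rose (3.33%, against 5.92% of all genes) and Abi2, Daam2 and Inf2 fell (10%, against 15.4%). Abi2, part of the WAVE complex that switches on Arp2/3, was at 171, 137 and 190 CPM in Astro and 76.5, 44.8 and 43.6 in PAP (-1.59 ± 0.43, edgeR adjusted p = 0.0431, blocked adjusted p = 0.206). Nckap1, another WAVE subunit and the gene of this group with the highest mean CPM over the 6 libraries, was at 627, 383 and 581 CPM in Astro and 264, 71.6 and 315 in PAP and did not pass (adjusted p = 0.183). Daam2, a formin, was at 51.9, 78.3 and 75.1 CPM in Astro and 2.55, 8.76 and 13.9 in PAP (-3.02 ± 0.84, edgeR adjusted p = 0.0484, blocked adjusted p = 0.206). Abi2 passed in 5 of 20 alternatives and Daam2 in 6.

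Of 19 cross-linkers and side-binders 1 fell (5.26%, against 15.4% of all genes), Cnn3 (calponin 3), at 881, 617 and 708 CPM in Astro and 64.8, 75.3 and 167 in PAP (-2.84 ± 0.45, edgeR adjusted p = 0.0208, blocked adjusted p = 0.0807). Tagln3, with the highest mean CPM of them, did not pass (-1.99, adjusted p = 0.0885). Of 9 monomer-binding genes 1 fell, Mtss1 (11.1%, against 15.4% of all genes). The gene of that group with the highest mean CPM, Twf1 (twinfilin 1), had 138, 87.1 and 99.4 CPM in Astro and 159, 10.3 and 104 in PAP. Among 7 genes of non-muscle myosin II 0 passed in either direction by edgeR, beside 5.92% higher and 15.4% lower over all genes, and the light chain Myl12b had 202, 218 and 207 CPM in Astro and 290, 141 and 157 in PAP. Of the 4 muscle-type actins 2 were tested and 0 passed, beside the same shares over all genes. Acta1 was at 1.72 to 3.58 CPM in Astro and at 19.4, 2.58 and 0 in PAP.

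**Figure D5:**
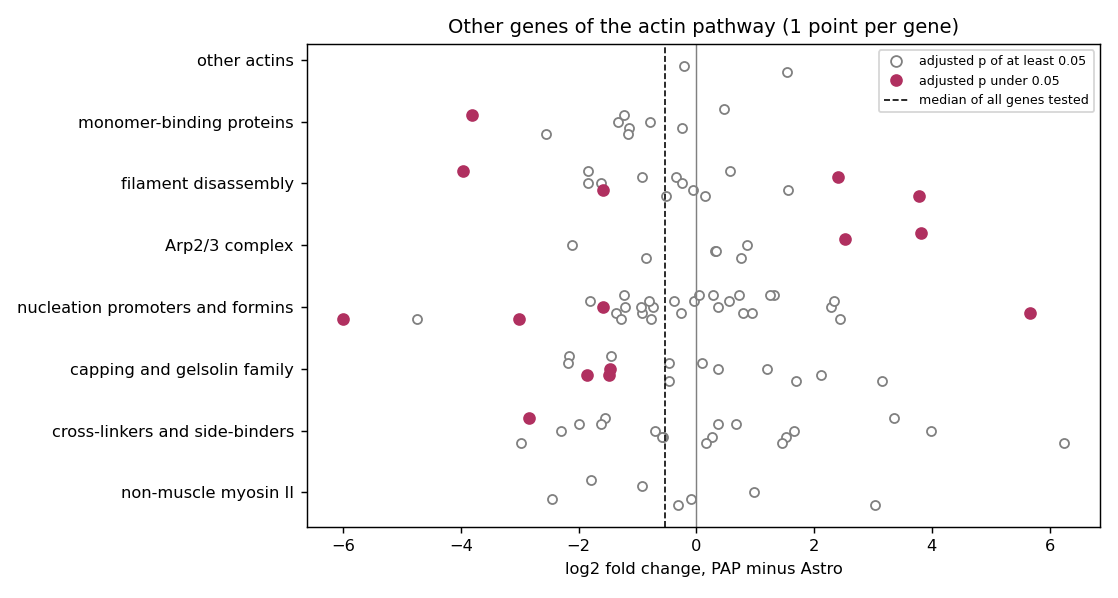
Fitted log2 fold change (horizontal, PAP minus Astro) of 104 of the 113 tested genes of the wider actin list, 1 point per gene in 8 rows by role, with filled points for an edgeR adjusted p under 0.05 and a dashed line at the median of all genes tested (-0.53). The 5 filled points on the right are the genes that rose, and the 10 on the left are those that fell other than Rhoa, Rac1 and Cdc42, which are not drawn.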

How the data were processed

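Per the file headers, each of the 48 deposited tables lists genes with a count; all values are whole, and they were taken as counts that the authors left unscaled. Per the submitters' processing notes, the tools were bcl2fastq 2.18.0.12, Trim Galore 0.4.1, STAR 2.5.2b, SAMtools and HTSeq 0.5.3 with build mm10, and the annotation and strand setting are not given in the sources used here. Per the labels' protocols, cDNA was amplified by SMART-Seq before Nextera XT library preparation. No molecular identifiers are mentioned, so floors cover counting error only.

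Counts were summed over technical replicates. Symbols, positions (1-based) and exonic lengths came from GENCODE M21 on GRCm38, in which 47224 identifiers were found (99.12%). Genes passing filterByExpr (minimum count 10) were scaled by TMM and tested with edgeR 4.0.16 in R 4.3.3 (quasi-likelihood, group alone, Benjamini-Hochberg over 14618 genes, threshold 0.05). The SE is the log2 fold change divided by the root of its F statistic. The labels give libraries of both compartments the same animal ID, and the pairing rests on that label; deviations of paired libraries from their group means hardly correlated (0.033, 0.018 and -0.027). Where the block changes a call, the blocked value is given for that gene or for its group. Pair shares were compared by exact permutation in SciPy 1.17.1. Near copies were sought as shared words of 50 bases. The scripts were tested on simulated data.

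The members and lists were chosen with earlier results of these data known. All 10 members are named, then, of the wider list, the gene of each role with the highest mean CPM and up to 6 genes per direction with the largest change among those called with a mean of at least 10 CPM and groups that do not overlap; all Arp2/3 subunits were added after values were seen. Alternatives were other scalings, filters, DESeq2 1.42.0, limma 3.58.1 voom, thinning to 1829962 counts, a length and GC offset, 4 technical replicates at a time, and leaving out each library. Some items of the lists are not reported here.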

Additional observations from a re-analysis of the deposited data

How the results depend on the processing

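Pairing by animal (the replicate block) moved the genes called from 3115 to 133, members called from 1 to 0, and the wider actin list from 5 higher and 13 lower to 1 and 0. With thinned counts the genes called were 1716 without the block and 174 with it, and with the length and GC offset and the block 117. Both blocked fits gave 0 members and 1 and 0 of the wider list, and thinning without the block gave 7 lower. A mean of at least 100 counts gave 1414 genes called and 5 of the list lower. No filter gave 3 and 8 of the list, beside 571 higher and 1549 lower of 23924 genes tested. DESeq2 gave 5141 genes, 4 members, and 13 and 22 of the list. Voom gave 2 members and 6 of the list lower, beside 3518 genes called, 2915 of them lower, of 14618, and technical replicates 1 to 4 gave 2 members beside 2807 of 13498 genes. Leaving out 1 library at a time gave 115 to 4586 genes called, 0 to 2 members, 1 to 9 of the list higher and 0 to 22 lower. The Actb share difference ran from -9.38 to 0.685 percentage points in the same way, and its mean within-animal difference (the pairing) was -4.18, as for the unpaired value. Of the other pairs, the Pfn1 share difference ran from 22.9 to 42.7 and the Tmsb4x share difference from -0.875 to -0.311.

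Some log2 fold changes changed sign, most of them near 0, and none of these passed the threshold either way. Pfn1 went to -0.14 without a filter, -0.01 and -0.02 on either set of 4 technical replicates, and from -0.09 to 0.14 without 1 library (negative without Astro replicate 3 and PAP replicates 1 and 2). Tmsb10 went to -0.03 without a filter, -0.19 and -0.26 with the length and GC offset (the latter with the block), -0.01 on technical replicates 1 to 4, and from -0.52 to 0.41 without 1 library (negative without Astro replicate 1 and PAP replicate 2). Arpc2 went to -0.06 without a filter and from -0.24 (without PAP replicate 3) to 0.25 without 1 library. Acta1, at 1.54, went to -0.33 with the block, -0.53 with offset and block, and from -1.10 (without PAP replicate 1) to 2.07 without 1 library. Twf1 went to 0.16 and Gmfb to 0.04 with the offset, and Twf1 ran from -0.96 to 0.22 (without PAP replicate 2) without 1 library. Myl12b went to 0.07 with library size alone, 0.00 with upper-quartile factors, 0.12 with a mean of at least 100 counts, 0.14 and 0.06 thinned (the latter with the block), 0.03 with the offset, and from -0.53 to 0.04 (without PAP replicate 2) without 1 library. The cause was not tested. Among the 10 members PAP depth limits Gsn and Tmsb10 most, since their PAP libraries held 0 to 39 counts.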
